A study of Mus musculus with 2 samples.

Results

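The genes of class I peptide loading and of the immunoproteasome were followed in autoreactive and non-autoreactive immature B cells of mouse bone marrow. They were B2m, Tap1, Tap2, Tapbp, Psmb8, Psmb9, Psmb10, Erap1, Calr and Pdia3, and every gene probe named for 1 of them, under its current or an older symbol, was kept in both channels. That gave 10 genes and 16 probes, of 27669 gene names and 41174 probes on the array. Tap1, Tap2, Tapbp, Psmb8 and Psmb9 lie inside the H-2 region of chromosome 17 (5 genes, 7 probes), and the other 5 genes, with 9 probes, lie outside it. All 16 probes passed the filter on dim spots, and 15 were well above background in both channels on both arrays.

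Each of 2 Agilent two-colour arrays set autoreactive cells, labelled with Cy5, directly against non-autoreactive cells, labelled with Cy3. The autoreactive cells came from BALB.B mice of the genotype 3-83Igi, Rag1-/-, H-2b, and the non-autoreactive cells from BALB/c mice of the genotype 3-83Igi, H-2d. 3-83Igi, which all mice carried, is a knock-in of the 3-83 B cell receptor, an antibody known to bind H-2K molecules of the b haplotype and not those of the d haplotype. All mice were untreated, and their cells were pooled and sorted as positive for B220 and negative for CD23, CD43 and IgD; the labels give neither the animals' age nor which animals were pooled. The series speaks of biological replicates, 2 in each group, but only the autoreactive pools are numbered, so the spread between these 2 arrays may be partly technical. The p-values and standard errors (SE) of limma join that spread with a variance shared by all probes tested. The arrays gave 1 degree of freedom and the shared variance 5.10. Strain, H-2 haplotype, Rag1 genotype and dye all followed the groups and cannot be told apart from autoreactivity.

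MHC class I molecules carry peptides to the cell surface, where T cells and NK cells read them. The proteasome cuts cytosolic proteins into peptides, the transporter formed by Tap1 and Tap2 moves them into the endoplasmic reticulum (ER), Erap1 trims them, and tapasin (Tapbp), calreticulin (Calr) and Pdia3 hold the class I heavy chain and β2-microglobulin (B2m) together until a peptide binds. Interferon is known to raise most of these genes, among them the immunoproteasome subunits Psmb8, Psmb9 and Psmb10, which take the place of Psmb5, Psmb6 and Psmb7 in the catalytic core.

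The promoters of the members that passed the test, and the stretch from which Psmb9 and Tap1 are read in opposite directions, are shown first, for the letters searched in them. RefSeq's promoter table on GRCm38.p6 had 9 of the 10 members; Tap2 was not among them. Each line runs 5′ to 3′ on the strand of the gene (of Tap1 in the shared stretch) and ends at the base before the start of transcription. Capitals mark matches, on either strand, to 1 of 4 motifs. The interferon-type element is a pair of GAAA runs with a gap of 2 bases, and the kappaB-type element is GGG followed, after a gap of 2 bases, by TTTCC. The ER stress element is CCAAT followed, after a gap of 9 bases, by CCACG, and the CCAAT box is CCAAT alone, which the ER stress element contains. The B2m sequence is chr2:122147437-122147686 on the plus strand, Calr is chr8:84846932-84847181 on the minus strand, Pdia3 is chr2:121413652-121413901 on the plus strand, and the Psmb9 and Tap1 stretch is chr17:34187331-34187555 on the plus strand.
B2m: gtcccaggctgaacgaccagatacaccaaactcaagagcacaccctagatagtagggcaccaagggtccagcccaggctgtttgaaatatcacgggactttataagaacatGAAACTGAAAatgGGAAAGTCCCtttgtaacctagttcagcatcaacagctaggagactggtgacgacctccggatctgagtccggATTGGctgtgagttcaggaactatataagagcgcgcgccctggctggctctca
Calr: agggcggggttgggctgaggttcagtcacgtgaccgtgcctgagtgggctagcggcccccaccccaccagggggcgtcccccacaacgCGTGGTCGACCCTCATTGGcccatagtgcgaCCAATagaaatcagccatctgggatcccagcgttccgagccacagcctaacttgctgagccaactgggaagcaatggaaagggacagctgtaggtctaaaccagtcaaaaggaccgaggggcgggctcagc
Pdia3: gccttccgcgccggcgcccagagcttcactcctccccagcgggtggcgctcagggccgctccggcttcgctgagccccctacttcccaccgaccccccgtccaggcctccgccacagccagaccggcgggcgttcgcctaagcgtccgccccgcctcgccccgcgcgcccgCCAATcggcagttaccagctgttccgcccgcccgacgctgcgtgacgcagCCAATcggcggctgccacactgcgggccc
Psmb9 and Tap1: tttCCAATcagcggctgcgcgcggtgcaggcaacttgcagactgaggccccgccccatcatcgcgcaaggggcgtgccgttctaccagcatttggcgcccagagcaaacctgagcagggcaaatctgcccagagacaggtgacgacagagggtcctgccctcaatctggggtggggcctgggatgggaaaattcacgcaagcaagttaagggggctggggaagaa

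B2m had the interferon-type match GAAACTGAAA 139 bases before its start, a kappaB-type match on the minus strand 126 bases before it and a CCAAT box. Among 32851 mouse promoters searched over the same 250 bases, 2.98% held the interferon-type letters and 1.41% the kappaB-type letters. Calr had the ER stress element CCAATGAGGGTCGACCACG on its opposite strand, 162 bases before the start, which 0.113% of promoters held. That element includes 1 of the 2 CCAAT boxes of Calr, and Pdia3 had CCAAT boxes 79 and 29 bases before its start and no ER stress element in this window. CCAAT boxes were in 33.8% of all promoters, and the 225 bases between Psmb9 and Tap1 held 1 and no match to the other 3 motifs. Of the 9 members searched, B2m alone had an interferon-type or kappaB-type match in these 250 bases, and Psmb8, Psmb9, Psmb10, Tap1, Tapbp, Erap1, Calr and Pdia3 had neither. A match is a run of letters and was not tested as a binding site.

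Tap2 and B2m were higher in autoreactive cells, by 1.74-fold and 1.58-fold, and Calr and Pdia3 were lower, by 1.97-fold and 2.09-fold. The other 6 genes, among them all 3 immunoproteasome subunits and Tap1, did not pass the test. B2m passed on its brightest probe only, and the average of its probes, a log2 ratio of 0.25, was not called. A gene was read from its brightest tested probe and called at a limma p under 0.05 after Benjamini-Hochberg adjustment, which ran over the whole set of 22613 probes that passed the filter. By this rule 4 of 10 members were called, 2 in each direction, while 6.14% of the 15104 genes tested were called, 3.52% higher and 2.62% lower. The members were chosen with earlier results of these data known, so these shares are given side by side and were not compared by a test. Of the members, 5 had an unadjusted p under 0.05, which 24.3% of all genes had. By probe, 5 of 16 were called, 2 higher and 3 lower, against 5.36% of all probes tested, 3.18% higher and 2.18% lower.

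The median log2 ratio of autoreactive over non-autoreactive cells was -0.26 over the 10 members, against -0.0018 over all genes, and 8 of 10 members had a mean below 0, as had 50.3% of all genes. These ratios are relative to a loess curve through each array. When each array was centred on its median instead, the median of all genes moved to 0.58 and that of the members to 0.82, so that 9 of 10 members, all but Pdia3, were above 0. Values under median centring given below are therefore to be read against 0.58 rather than 0. Without loess the median also rose with brightness, to 1.32 on array 1 and 1.44 on array 2 in the brightest twentieth of probes. The value of 0.58 thus lies below the median of probes as bright as some members. With the median taken over probes detected in both channels, the members' median was 0.25.

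**Figure D1:**
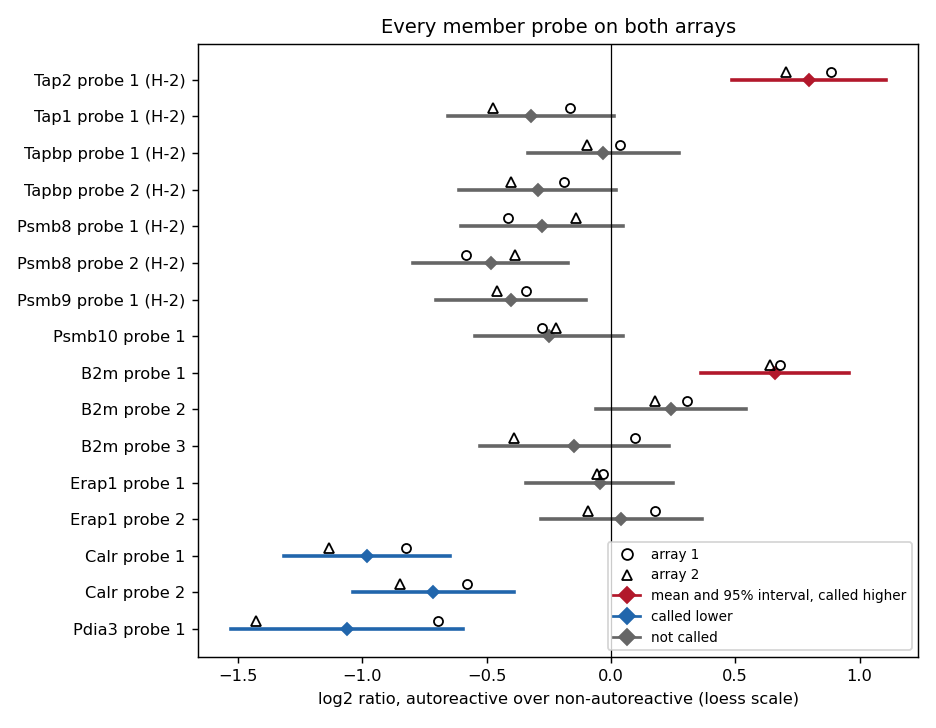
Log2 ratio of autoreactive over non-autoreactive cells (horizontal axis, loess scale) for each of the 16 probes, with array 1 as circles, array 2 as triangles, and the limma mean and its 95% interval as diamonds and bars. Tap2 and the brightest B2m probe lie above 0 on both arrays, and both Calr probes and Pdia3 below 0. Calr moved to 0.08 when arrays were centred on their median, where all genes had a median of 0.58.

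The probes of the transporter subunits parted. Tap2, which with Tap1 forms the channel for peptides, had log2 levels of 12.04 and 11.59 in autoreactive cells on arrays 1 and 2, against 11.15 and 10.88 in non-autoreactive cells. Both autoreactive values lay above both non-autoreactive ones. How many of all genes separate in this way was not counted, for Tap2 or for the genes below. Tap1, Psmb8, Psmb9 and Psmb10, which did not pass the test, separated too, so a lack of overlap is no evidence by itself. Its log2 ratio was 0.80 ± 0.13 (SE, n = 2 arrays; 95% interval 0.49 to 1.11; limma adjusted p = 0.0245). The 1 Tap2 probe lies at chr17:32294682-32295269 on the plus strand, in the array's own coordinates, for which the files name no build, and spans 588 bases. Whether it matches the b and d alleles equally well was not examined, nor was this examined for the other members inside H-2.

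Tap1 had log2 levels of 11.97 and 11.98 in autoreactive cells and 12.14 and 12.46 in non-autoreactive cells. Both autoreactive values were the lower, but the log2 ratio of -0.32 ± 0.14 (SE, n = 2 arrays) did not pass the test (limma adjusted p = 0.230), and it was 0.43 with arrays centred on their median. On the log2 scale the ratio of Tap2 exceeded that of Tap1 by 1.05 on array 1 and by 1.18 on array 2. That difference stayed between 1.04 and 1.18 in every setting tried, single arrays included, and had no test of its own. The call of Tap2 was lost with the deposited ratios (limma adjusted p = 0.052) and with separate channels (adjusted p = 0.18), at log2 ratios of 0.82 and 0.80. The separate-channels fit, here and below, treated all channels as independent and did not use their pairing on an array.

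Tapasin, which bridges the transporter and the class I heavy chain, had log2 levels of 14.06 and 14.22 in autoreactive cells and 14.02 and 14.32 in non-autoreactive cells on its brightest probe. The groups overlapped, and the log2 ratio was -0.03 ± 0.12 (SE, n = 2 arrays; limma adjusted p = 0.907). Its second probe had a ratio of -0.30 ± 0.13 (adjusted p = 0.238), and with arrays centred on their median the brightest probe turned to 0.99.

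The 3 immunoproteasome subunits had ratios between -0.40 and -0.25, and none passed the test. Psmb8, which replaces Psmb5, had log2 levels of 14.78 and 14.98 in autoreactive cells and 15.19 and 15.12 in non-autoreactive cells. Psmb9, which replaces Psmb6, had 14.91 and 14.79 in autoreactive cells and 15.25 and 15.24 in non-autoreactive cells. Both autoreactive values lay below both non-autoreactive values for each gene.

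Psmb10, which replaces Psmb7, had log2 levels of 15.32 and 15.41 in autoreactive cells and 15.59 and 15.63 in non-autoreactive cells. The log2 ratios (SE, n = 2 arrays, limma) were -0.28 ± 0.13 for Psmb8 (adjusted p = 0.276), -0.40 ± 0.12 for Psmb9 (adjusted p = 0.133) and -0.25 ± 0.12 for Psmb10 (adjusted p = 0.283). A second Psmb8 probe had -0.48 ± 0.13 (adjusted p = 0.0935). With arrays centred on their median all 3 ratios turned positive, to 0.88 for Psmb8, 0.76 for Psmb9 and 0.98 for Psmb10.

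The constitutive subunits gave a yardstick within each array, and none of them passed the test either: the log2 ratio was -0.11 for Psmb5, 0.08 for Psmb6 and -0.09 for Psmb7, and all 3 were above 0 with arrays centred on their median. Psmb9 lay below Psmb6 by a log2 difference of -0.27 on array 1 and -0.69 on array 2. Psmb8 lay below Psmb5 by -0.17 and -0.15, and Psmb10 below Psmb7 by -0.09 and -0.22, on arrays 1 and 2. Under median centring the last 2 differences turned to 0.04 and 0.28. No test was made of these differences.

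**Figure D2:**
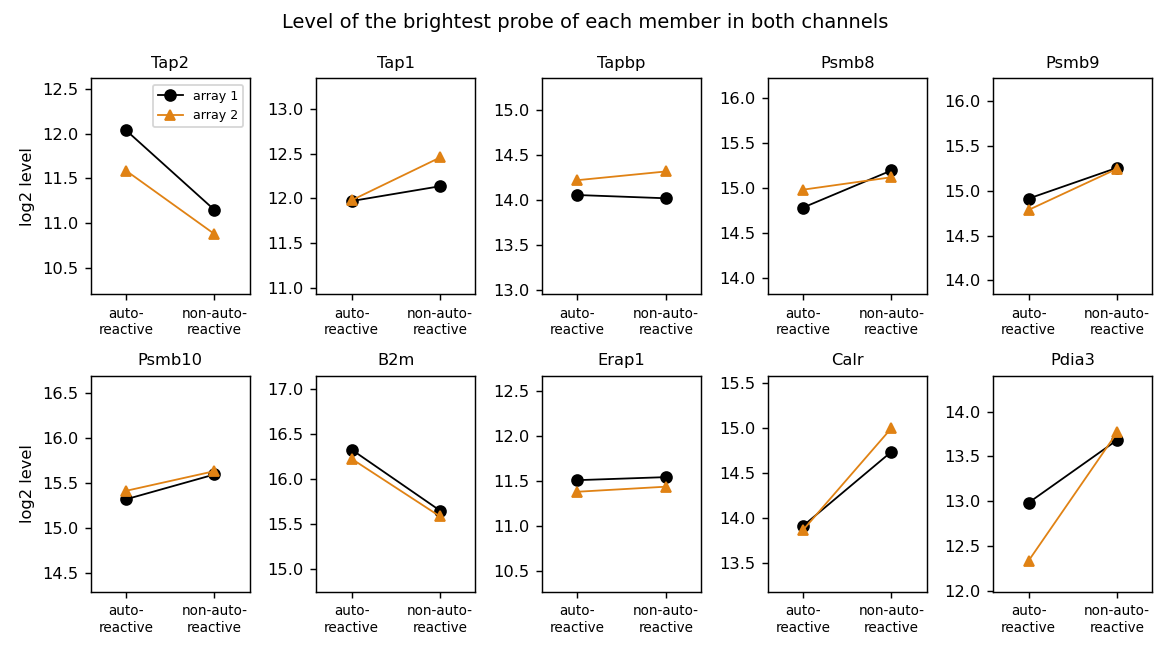
Log2 level of the brightest probe of each member in autoreactive cells (left) and non-autoreactive cells (right), a line joining the channels of 1 array. The vertical axis is on the loess scale, after quantile scaling of mean intensity between arrays, and each panel spans the same number of log2 units. Levels may be compared within a panel only. Tap2 and B2m slope down from left to right on both arrays and Calr and Pdia3 slope up. The slope of Calr was lost (0.08) when arrays were centred on their median, where all genes had a median of 0.58.

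B2m, the light chain of every class I molecule, differed between its 3 probes. The brightest had log2 levels of 16.33 and 16.22 in autoreactive cells, against 15.65 and 15.58 in non-autoreactive cells, with no overlap. Its log2 ratio was 0.66 ± 0.12 (SE, n = 2 arrays; 95% interval 0.36 to 0.96; limma adjusted p = 0.0363). This probe had 1 spot per array, at chr2:121893518-121893577 in the array's coordinates, and was brighter than 98.7% of the probes tested.

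A second B2m probe, printed in 10 spots per array close to the first, had log2 ratios of 0.31 on array 1 and 0.18 on array 2. Its spots ranged from 0.17 to 0.37 on array 1, over the spots left after 1 outlier was removed, and from 0.01 to 0.29 on array 2, so on each array the brightest probe's ratio lay above all of them. The mean of 0.24 ± 0.12 did not pass the test (limma adjusted p = 0.300). The third probe lies 3802 bases upstream of the brightest and had 0.10 and -0.39, with a mean of -0.15 ± 0.16 (adjusted p = 0.603). Averaging the probes gave a log2 ratio of 0.25 for B2m and no call (limma adjusted p = 0.278), and the call was also lost with a normexp offset of 16 (0.056), the deposited ratios (0.246) and separate channels (0.131).

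Erap1, the ER aminopeptidase that trims peptides to length, is named Arts1 on the array. Its brighter probe had log2 levels of 11.51 and 11.38 in autoreactive cells and 11.54 and 11.44 in non-autoreactive cells. The log2 ratio of -0.05 ± 0.12 (SE, n = 2 arrays) did not pass the test (limma adjusted p = 0.851), and was 0.64 with arrays centred on their median. The dimmer probe was well above background on 1 of 2 arrays in autoreactive cells and on both in non-autoreactive cells, and had a ratio of 0.04 ± 0.13.

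Calreticulin, the lectin chaperone of newly made glycoproteins and of the class I heavy chain, was lower on both of its probes. The brighter Calr probe had log2 levels of 13.91 and 13.87 in autoreactive cells, against 14.74 and 15.00 in non-autoreactive cells. Its log2 ratio was -0.98 ± 0.14 (SE, n = 2 arrays; 95% interval -1.31 to -0.65; limma adjusted p = 0.0166). A second, dimmer probe was also called lower, with -0.71 ± 0.13 (adjusted p = 0.0379). With separate channels the call was lost (limma adjusted p = 0.0635). With arrays centred on their median the ratio was 0.08, where all genes had a median of 0.58. With centring on detected probes Calr had -0.49 and was called lower (limma adjusted p = 0.0334).

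Pdia3, the thiol oxidoreductase that works with calreticulin and forms a disulfide with tapasin, had log2 levels of 12.99 and 12.34 in autoreactive cells, against 13.68 and 13.77 in non-autoreactive cells. The groups did not overlap, but the ratio was -0.70 on array 1 and -1.43 on array 2. The mean was -1.06 ± 0.19 (limma SE, n = 2 arrays, 95% interval -1.53 to -0.60, limma adjusted p = 0.0339). This SE is drawn toward the variance of all probes and is smaller than these 2 values alone would give. The call was lost with no filter on dim probes (adjusted p = 0.0882), the deposited ratios (0.0617), separate channels (0.129) and median centring (0.387), where the ratio was -0.19.

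Markers of other bone marrow cell types were mostly lower on array 2. The sort for B220 and against CD43 acts against granulocytes, T and NK cells and erythroid cells, yet markers of each were detected. Plasmacytoid dendritic cells are known to carry B220. How far the sort removed any of these types was not tested. For the 8 of 8 plasmacytoid dendritic cell markers tested, array 1 gave a median log2 ratio of -0.85 and array 2 one of -1.87, and their summed intensity was 89011 and 84984 in autoreactive cells, against 140178 and 161445 in non-autoreactive cells. Of the 8, Cox6a2 and Ly6d were called lower, and the others, Siglech, Ccr9, Klk1 and Bst2 among them, were not called. Whether B lineage cells also express some of the 8 was not examined. The medians on arrays 1 and 2 were 0.04 and -0.77 for 9 of 9 dendritic cell and macrophage markers, 0.06 and -0.86 for 7 of 8 granulocyte markers, -0.09 and -1.20 for 7 of 8 T and NK cell markers, and -0.52 and -0.57 for 5 of 6 erythroid markers; Ltf, Cd8b1, Hemgn and Slc4a1 were called lower among them, and Ly6g, Cd4 and Hbb-b1 were not tested. The dendritic cell and macrophage markers summed to intensities of 99228 to 108469 in autoreactive cells and 73275 to 108687 in non-autoreactive cells, and the granulocyte markers to 360114 to 414953 in autoreactive cells and 360169 to 490656 in non-autoreactive cells. The T and NK cell markers summed to 6617 to 11672 in autoreactive cells and 12893 to 15990 in non-autoreactive cells, and the erythroid markers to 19273 to 23355 in autoreactive cells and 29383 to 34666 in non-autoreactive cells. Of 7 of 7 B lineage markers tested, Ighm was called higher and Pax5 and Ptprc lower, with medians of -0.19 and 0.16 and summed intensities of 422850 to 457014 in autoreactive and 316513 to 330811 in non-autoreactive cells. The part of these cells in the ratios of Calr, Pdia3, the ER chaperones and the interferon targets was not tested, and in pooled cells fewer cells of a type and less RNA per cell cannot be told apart.

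As checks of the labels, H2-Ea, a class II gene known to be silent in the b haplotype, had log2 ratios of -5.22 and -5.26 (limma adjusted p = 0.000187). The brightest of 3 Rag1 probes read 4.25 and 4.02 higher, on the log2 scale, in the cells labelled Rag1-/-, and all 3 were called higher. Where these probes lie relative to the disrupted part of Rag1 is not given in the sources used here, so they check nothing. Both arrays lay on 1 slide, no gene spot was saturated, and between 54.1% and 57.4% of gene spots per channel were well above background.

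Inside H-2, 1 of 5 members was called, and outside it 3 of 5, with median log2 ratios of -0.28 and -0.25; under median centring all 5 genes inside were called higher, as were 65.8% of all genes tested. The probes of Psmb9, Tap1, Psmb8 and Tap2 span 33.12 kb and lie 0.127 to 0.160 Mb from the H2-Ea probe, with Tapbp at 0.415 Mb. Of the 97 other genes tested within 1 Mb of the H2-Ea probe, 8 were called higher and 11 lower, or 19.6%, against 6.14% of all genes. On chromosome 2, B2m and Pdia3 lie 0.715 Mb apart and 20.4 and 19.69 Mb from Rag1, and of the 27 other genes tested within 1 Mb of the B2m probes 0 were called higher and 4 lower, or 14.8%.

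Before the loess step, ratios varied with brightness. The median ratio of the tested probes climbed with brightness, from -0.12 in the dimmest twentieth of probes to 1.32 in the brightest on array 1, and from -0.07 to 1.44 on array 2. Of the 16 member probes, 15 lay at or above the 48.3% point of the brightness of all probes, and the brightest probes of Psmb8, Psmb9, Psmb10 and B2m between 96.3% and 98.7%. Before loess Calr read 0.15 and -0.0001, B2m 1.89 and 2.03, and Tap2 1.56 and 1.38 on arrays 1 and 2. Tap2 lay above and Calr and Pdia3 below the curve of other probes of their brightness on both arrays.

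**Figure D3:**
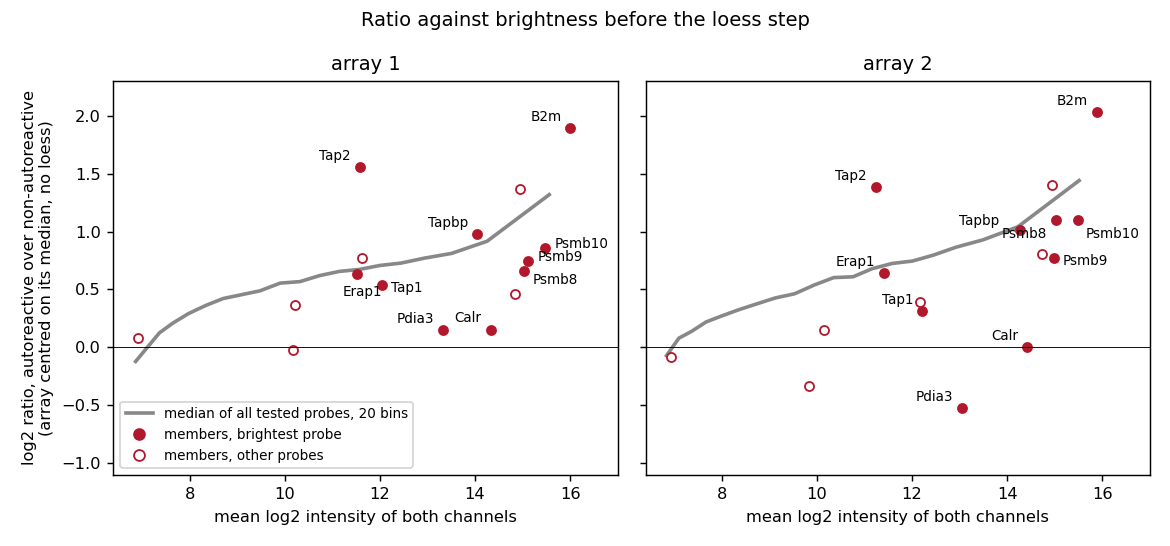
Log2 ratio of autoreactive over non-autoreactive cells with each array centred on its median and no loess (vertical axis) against mean log2 intensity (horizontal axis), with the grey line as the median of all tested probes in 20 bins. Member probes are red, filled for the brightest of each gene; Tap2 lies above the line and Calr and Pdia3 below it on both arrays, and of the filled points Pdia3 on array 2, at -0.52, is the only one clearly below 0.

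The other genes of the pathway were read from lists of its steps. With arrays centred on their median every list had a median above 0, between 0.19 and 0.89, where all genes had 0.58. The ER chaperones, which fold glycoproteins beside Calr and Pdia3, had 17 genes tested, and none was called (limma), although 9 had an unadjusted p under 0.05. Their median log2 ratio was -0.33, with -0.22 on array 1 and -0.54 on array 2, and 17 of 17 had a mean below 0, as had 50.3% of all genes. With arrays centred on their median 0 of 17 were below 0, and the list's median was 0.586, against 0.582 for all genes. These 2 medians were not matched for brightness. With centring on detected probes 8 of 17 were below 0, and the medians were 0.0205 and 0.0164. The farthest from 0 were Pdia4, another ER oxidoreductase, at -0.53 ± 0.17, Sdf2l1, a partner of the chaperone Hspa5, at -0.53 ± 0.15, the glucose-binding lectin Mlec at -0.51 ± 0.13 and the Hspa5 co-chaperone Dnajb11 at -0.50 ± 0.14 (SE, n = 2 arrays).

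Of 9 proteasome activator and assembly genes none was called, none had an unadjusted p under 0.05, and the median log2 ratio was -0.0052. The 4 farthest from 0 were the activator Psme3 at 0.20 ± 0.12, the assembly factor Psmg2 at -0.13 ± 0.13 (0.11 on its second probe), the interferon-inducible activator subunit Psme1 at -0.11 ± 0.13 and the assembly chaperone Psmg3 at 0.07 ± 0.13. Of 11 cytosolic peptidases, which trim or destroy peptides before transport, none was called and 4 had an unadjusted p under 0.05, with a median of -0.08. Their extremes were the insulin-degrading enzyme Ide at -0.65 ± 0.18, the oligopeptidase Thop1 at 0.55 ± 0.13, the leucine aminopeptidase Lap3 at 0.36 ± 0.17 and the puromycin-sensitive aminopeptidase Npepps at -0.32 ± 0.13.

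Of 16 ER export and quality control genes none was called and 2 had an unadjusted p under 0.05, with a median log2 ratio of -0.08. They ranged from -0.55 ± 0.12 for Edem1, which sends misfolded glycoproteins to degradation, to 0.29 ± 0.14 for the vesicle coat subunit Sec24d, with the export receptor Bcap31 at -0.35 ± 0.12 and the cargo lectin Lman2 at -0.26 ± 0.12. Of 21 regulators none was called and 2 had an unadjusted p under 0.05, with a median of 0.0043. The interferon signal transducer Stat2 had -0.55 ± 0.15, the interferon receptor chain Ifnar2 -0.42 ± 0.12, the transcription factor Irf8 -0.36 ± 0.15 and Nfkb1, a subunit of NF-kappaB, 0.33 ± 0.14 on its brightest probe, while its other 3 probes had -0.37, -0.36 and -0.10.

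Among 19 interferon targets, 1 was called, Mx1, an antiviral GTPase, which was lower. It had log2 levels of 8.0 and 7.93 in autoreactive cells, against 9.06 and 9.14 in non-autoreactive cells, and a log2 ratio of -1.14 ± 0.13 (SE, n = 2 arrays; limma adjusted p = 0.00887). A second Mx1 probe was also called lower, with -0.70 ± 0.12 (adjusted p = 0.0313), and Mx1 was called lower in every tested setting. The median of the list was -0.23, and 7 of 19 had an unadjusted p under 0.05. With arrays centred on their median the list had 0.19, against 0.58 for all genes. With centring on detected probes it had -0.37, against 0.016 for all genes. In that setting 7 of 19 were called lower, as were 2661 of all 15104 genes. Bst2, a tether of budding virus that is also a marker of plasmacytoid dendritic cells, had -0.74 on array 1 and -2.33 on array 2 (adjusted p = 0.064), the transcription factor Irf7 had -0.69 ± 0.17 and the antiviral enzyme Rsad2 -0.39 ± 0.16. Psmg4 and Nlrc5 were not among the named probes, and Calr3 and Ubd did not pass the filter on dim spots.

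**Figure D4:**
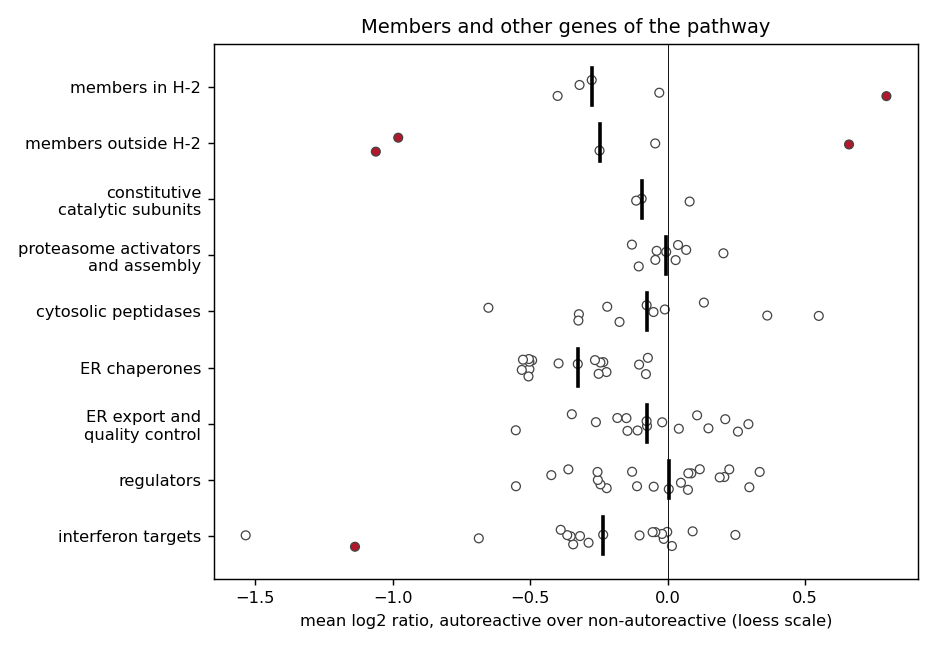
Mean log2 ratio of autoreactive over non-autoreactive cells (horizontal axis, loess scale) of each tested gene, by list, with a bar at each list's median and filled points for called genes. The 5 called genes are Tap2, B2m (on its brightest probe only), Calr, Pdia3 and Mx1. The 17 ER chaperones, all left of 0 here, had none below 0 with arrays centred on their median, where the median of all genes was 0.58.

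Across the settings that gave a test (10 besides the one reported), Tap2 was above 0 in 10 and called in 8, B2m above 0 in 10 and called in 6, Pdia3 below 0 in 10 and called in 6, and Calr below 0 in 9 and called in 8. Each of the other 6 members was called under median centring, where 68.4% of all genes were, and Tapbp also with centring on detected probes.

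**Figure D5:**
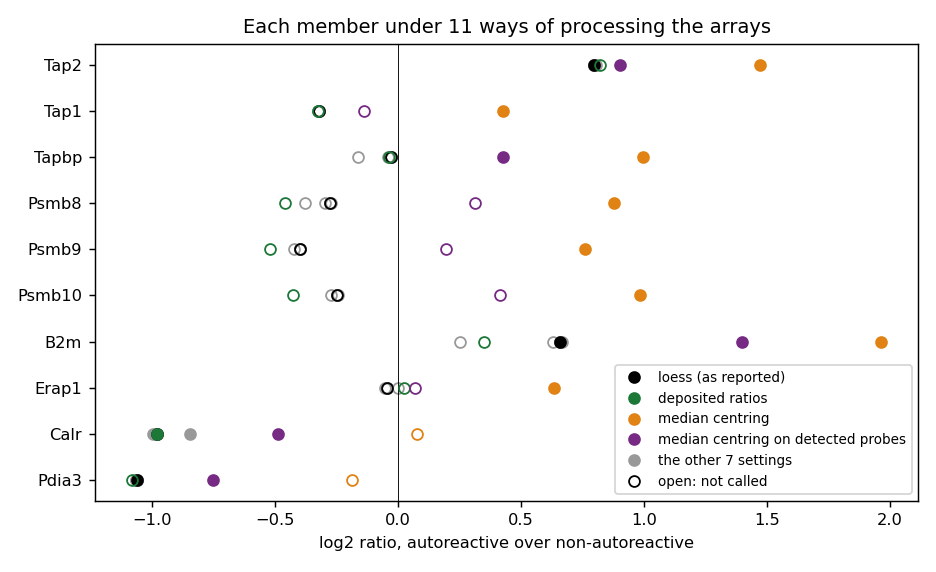
Log2 ratio of autoreactive over non-autoreactive cells (horizontal axis) of each member under 11 ways of processing, filled where the adjusted p was under 0.05. Tap2 and B2m stay above 0 and Pdia3 below it throughout. Calr and the other 6 members reach values above 0 with median centring, where all genes had a median of 0.58.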

How the data were processed

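Agilent's linear amplification kit for low input was used on 0.5 ug of RNA per sample, per the labels. For each spot and channel the deposited files give a mean and a local background intensity, which the authors extracted with version 9.5.1.1 of Agilent Feature Extraction (per the file headers). The authors' deposited table gives log10 ratios of Cy5 over Cy3 that match the scanner files within 5e-10, with a median of 0 on each array.

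Background was handled by normexp with an offset of 50, followed by a loess fit on each array, in limma 3.58.1 (R 4.3.3); outlier spots were removed and spots of a probe averaged. Probes had to stand well above background on both arrays in 1 channel or the other, which left 22613 probes. For the levels of single channels, the mean intensities of both arrays were then brought to the same distribution (limma's Aquantile), which leaves each ratio as it was. The summed marker intensities come from these levels. Log2 ratios were tested against 0, two-sided, with lmFit and eBayes (1 residual and 5.10 prior degrees of freedom), Benjamini-Hochberg adjustment and a threshold of 0.05. The number of arrays, 2, limits the precision. The code was tested on simulated data. Named were all members, Psmb5, Psmb6, Psmb7 and, in each other list, called genes and up to 4 farthest from 0; 12 alternatives were run. Members, lists and markers were chosen with earlier results of these data known.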

Additional observations from a re-analysis of the deposited data

How the results depend on the processing

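The count of calls moved with the scaling and with the model. Of the models, separate channels did not use the pairing of the 2 channels on an array. Of the 10 members, 4 of which were called as reported, 1 was called with the deposited ratios, 8 (all higher) with median centring and 0 with separate channels, which left each ratio as it was and where limma called 196 of all genes; of the 16 probes, 1, 11 and 0 were called under these 3 settings, 8 with centring on detected probes and 3 with no filter on dim probes. Of the 5 genes inside H-2, 0, 5 and 0 were called, and 2 with centring on detected probes. Of the other pathway genes, of which 1 was called, 75 were called with median centring, 23 with centring on detected probes and 2 with a trended, robust variance. All genes called came to 611 with the deposited ratios, 10325 with median centring (9944 higher and 381 lower) and 5103 with centring on detected probes (2442 higher and 2661 lower), against 927 (531 higher and 396 lower).

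The members' median log2 ratio was -0.38 with the deposited ratios, 0.82 with median centring and 0.25 with centring on detected probes. Psmb10 minus Psmb7 was -0.41 with the deposited ratios and 0.28 with either centring; Psmb8 minus Psmb5 was -0.39, 0.037 and, averaged over probes, -0.27. Single ratios changed sign as follows. With median centring Calr was 0.0764, Erap1 0.64, Psmb10 0.98, Psmb8 0.88, Psmb9 0.76, Tap1 0.43, Tapbp 0.99, Psmb5 0.84 and Psmb7 0.70. With centring on detected probes Erap1 was 0.0703, Psmb10 0.42, Psmb8 0.31, Psmb9 0.19, Tapbp 0.43, Psmb5 0.28 and Psmb7 0.13. With the deposited ratios Erap1 was 0.0232 and Psmb6 -0.0386. The cause of these changes was not tested.

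A single array gives no test. Counting ratios of at least 2-fold on 1 array alone, 0 (array 1) to 2 (array 2) members, 0 to 2 probes, 0 genes inside H-2 on either array and 1 to 2 other pathway genes passed, where 354 of all genes (2.34%) did on array 1 and 749 (4.96%) on array 2; the members' median was -0.22 to -0.18. On arrays 1 and 2, Psmb5 was -0.24 and 0.0107, Psmb6 -0.074 and 0.23, and Tapbp 0.0362 and -0.0969. Each ratio joins the channels of 1 array, so the reported test already paired the groups by array. No pairing of animals or pools beyond that was possible, because the labels number the autoreactive pools only.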
